A study of Mus musculus with 24 samples.

Results

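The genes described here encode integrin subunits of hematopoietic stem cells, the β3 subunit gene *Itgb3* with the genes of its α partners and of the other integrins usually named for blood stem cells. The list held 10 genes and was built around *Itgb3*, whose difference between young and old mice was already known from earlier results of these data. The members were thus chosen by measured values of the age contrast, and their age differences are given with no p-value and support nothing. Of the 10 genes, 9 had a row among the 18762 genes of the table, and all 9 were among the 12354 genes that passed the minimum mean of 10. *Itga5*, the α5 subunit gene, is not analysed here.

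Integrins are surface receptors made of 1 α and 1 β chain, which together bind matrix proteins or counter-receptors on other cells. The β3 chain pairs with αv (*Itgav*) to bind vitronectin and osteopontin, and with αIIb (*Itga2b*, CD41) to form the fibrinogen receptor of platelets. The β1 chain pairs with α4, α5, α6 and α9 and serves stem cells in homing to and lodging in the bone marrow, while β2 with αL (*Itgal*) forms the leukocyte integrin LFA-1. αv also pairs with β1 and other β chains, so the RNA of a chain does not give the amount of an intact receptor.

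RNA was sequenced from sorted LSK-SLAM bone marrow cells, among which stem cells are enriched, of Wt C57BL/6 mice, 5 young and 7 old. The sample labels give 4 to 5 months for young and 20 to 22 months for old mice, whereas the study's text gives other ages. Each library started from 15000 sorted cells and 300 pg of ribosome-depleted RNA made into a TotalScript library, and 24 labelled samples stand for 12 mice with 1 column of values each. The value is a normalized read count, the reads of a gene per M reads of a library rescaled by the authors, where M stands for 1000000.

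Each mouse carries a label letter, A or B, whose meaning is not given in the sources used here. Recovered reads ranged from 0.861 to 3.11 M in the 6 mice of letter A and from 3.23 to 5.12 M in the 6 mice of letter B, and a count of 3 reads corresponded to between 0.583 and 3.69 normalized read counts. Stem cell marker genes (*Kit*, *Procr*, *Mecom*, *Hlf* and 6 others) had reads in every mouse, and *Cd48*, whose protein the sort selects against, was between 0.583 and 11.8. The summed stem cell markers lay between 3331 and 5973 in 10 mice, and at 1737 in old mouse 5 and 2478 in old mouse 7. Olfactory receptor genes, which blood cells are not known to use, gave a level per kilobase of 0.550 to 2.24 in letter B and 2.44 to 5.52 in letter A (two-sided exact permutation test on log2 levels, p = 0.00216, the smallest that 924 splits allow). Levels and differences are therefore given within letters as well, and the part of the letter, of depth and of this low background in any difference was not tested beyond the values given. Because RNA was pooled from sorted cells, fewer cells expressing a gene and less RNA per cell cannot be told apart.

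The integrin RNA with the highest mean level per kilobase was *Itgb1*, and *Itga6* came next, close to *Itga4* in young mice. Per kilobase of exon, which allows levels of different genes to be compared, *Itgb1* had means of 63.9 ± 9.25 in the 5 young and 60.1 ± 18.4 in the 7 old mice (± SD). It stood above *Itga6*, the next gene, in 11 of 12 mice, and *Itga6* stood above *Itga4* in 11 of 12. In young mice, however, *Itga6* (36.2 ± 6.92) and *Itga4* (35.0 ± 7.50) were within their spread of each other. The middle of the order depended on age. In young mice the per-kilobase levels of *Itga2b* (19.6 ± 3.63), *Itgb2* (18.4 ± 5.34) and *Itgb3* (18.05 ± 1.65) were within their spread of each other and below *Itga4* (35.0 ± 7.50). In old mice *Itgb3* reached 37.79 ± 11.99 per kilobase and stood above *Itga4* (28.2 ± 8.14) in 6 of 7 mice, while *Itgb2* exceeded *Itga2b* in 4 of 7. *Itgav* followed at 10.9 ± 1.73 in young and 10.5 ± 1.76 in old mice. *Itgal* and *Itga9* closed the order, with medians over all mice of only 2.34 and 1.75 times the olfactory receptor level of the same mouse, whereas *Itgb1* had a median of 29.9 times and *Itgb3* of 9.88 times that level.

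**Figure D1:**
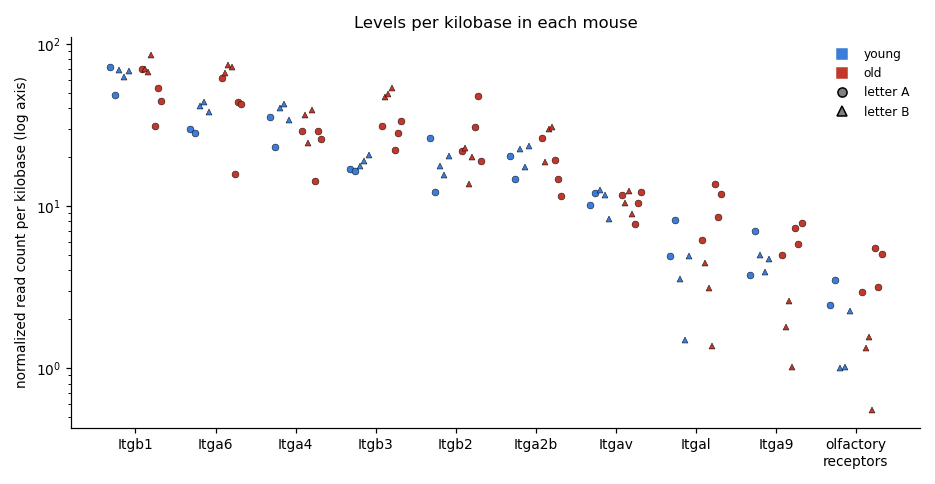
Normalized read count per kilobase of exon (log axis) of 9 integrin genes and of 1068 olfactory receptor genes summed, 1 point per mouse. Blue points are young and red points old mice, circles mark letter A and triangles letter B, and *Itgal* and *Itga9* lie closest to the olfactory receptor level.

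*Itgb3* (chr11:104608000-104670476, plus strand, mm10) was higher in every old than in every young mouse. The normalized read count was 99.5, 97.1, 104, 111 and 121 in young mice 1 to 5. It was 184, 278, 289, 316, 130, 167 and 197 in old mice 1 to 7. The young values were close together, the old values were spread over a wider range, and the lowest old value, in old mouse 5, exceeded the highest young value. The means of 106.5 ± 9.73 (SD, n = 5) and 223 ± 70.8 (SD, n = 7) gave a ratio of 2.09, from between 160 and 1627 reads per mouse.

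The difference of *Itgb3* on the log2(value + 1) scale, old minus young, was 1.0 (SE 0.21) over all mice and 1.09 (SE 0.18) with the letter as a covariate. It was 0.76 (SE 0.33) among the mice of letter A and 1.39 (SE 0.17) among those of letter B. In letter A, the old mice had 130 to 197 and the young mice 97.1 and 99.5. In letter B, the old mice had 278 to 316 and the young mice 104 to 121. The ages therefore did not overlap in either letter, and old mice of letter B were all above old mice of letter A. Without old mice 5 and 7, the mice with the lowest stem cell marker sums, the difference was 1.16 (SE 0.18). Among the 9 members *Itgb3* alone separated the ages completely, as 0.291% of all tested genes did with old above young and 0.461% in either direction.

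*Itgb3* was also compared with other transcripts of the same mouse, so that library scaling drops out. As a share of the summed stem cell markers, *Itgb3* made up 2.43% ± 0.443 in the young and 5.59% ± 1.59 in the old mice (± SD, n = 5 and 7). Per kilobase, its ratio to *Itgb1* was 0.235 to 0.340 in young and 0.445 to 0.753 in old mice. Of the summed level per kilobase of *Itgb1*, *Itgb2* and *Itgb3*, the last made up 14.7% to 21.4% in young mice and 21.9% to 37.6% in old mice. The share of *Itgb1* was 62.5% to 66.1% in young and 37.2% to 56.97% in old mice, and that of *Itgb2* overlapped between the ages. The shares of *Itgb3* and of *Itgb1* did not overlap between young and old mice. Both shares hold *Itgb3* in their total, and the read count of *Itgb1* itself overlapped between the ages. They are therefore no result apart from the difference of *Itgb3*. In old mouse 5 *Itgb3* had its second highest share of stem cell markers (7.50%) despite the lowest normalized read count among the old.

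The sum of progenitor markers was lower in every old than in every young mouse. The 4 listed genes with a row (*Cd34*, *Flt3*, *Cd48* and *Fcgr3*) summed to 177 to 301 in young and 99.9 to 159 in old mice. Most of this sum came from *Cd34*, and the 4 genes did not all lie in the same direction. *Cd34*, a surface antigen of progenitors, had means of 182 in young and 84.5 in old mice, with a log2 difference of -1.04 (SE 0.20, limma adjusted p = 0.0544) over all mice and -0.99 (SE 0.19, adjusted p = 0.00856) with the letter as a covariate. *Flt3*, a cytokine receptor of multipotent progenitors, had means of 54.1 and 30.8. Its log2 difference was -0.87 (SE 0.29, limma adjusted p = 0.780) over all mice and -1.01 (SE 0.23, adjusted p = 0.0523) with the letter as a covariate. *Fcgr3* went the other way, with means of 4.87 in young and 12.8 in old mice. Of the old mice, 3 of 7 were above its young range. *Cd48* had means of 7.30 and 5.38, and both genes were below the minimum mean of 10. The part of the mixture of stem and progenitor cells in the *Itgb3* difference was not tested.

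**Figure D2:**
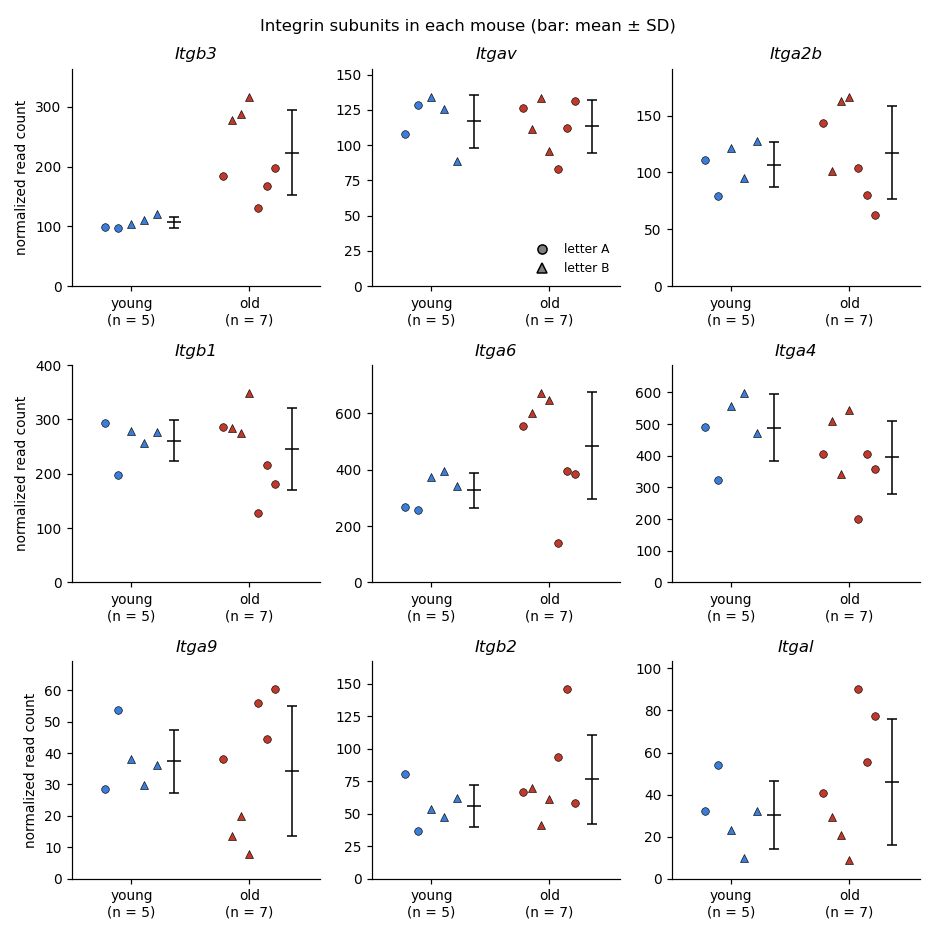
Normalized read count of each integrin gene in 5 young (blue) and 7 old mice (red), with circles for letter A, triangles for letter B and bars for mean ± SD. *Itgb3* separates the ages, with 97.1 to 121 in young and 130 to 316 in old mice, while the other 8 genes overlap.

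The genes of the β3 partners overlapped between the ages. *Itgav* (chr2:83724397-83806916, plus strand), the α chain of the vitronectin receptor, had 108, 128, 134, 125 and 88.4 normalized read counts in young mice 1 to 5. In old mice 1 to 7 it had 126, 112, 133, 95.7, 82.9, 112 and 132. The ages overlapped almost entirely, and 6 of 7 old mice were within the young range. The log2 difference was -0.05 (SE 0.17) and remained between -0.29 and 0.12 over the alternatives. *Itgav* exons overlap *Gm13684* on the opposite strand, and since the strand setting of the counting is not given in the sources used here, reads of the overlap cannot be assigned.

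*Itga2b* (chr11:102453297-102470122, minus strand), which encodes CD41 and is read in part of the stem cells as well as in megakaryocytes, had 111, 79.3, 121, 95.0 and 128 normalized read counts in young mice. In old mice it had 143, 101, 163, 166, 104, 80.3 and 62.7. Of the old mice, 3 were above and 1 below the young range, so that the old values were wider and not shifted. The log2 difference was 0.07 (SE 0.24) over all mice, -0.01 (SE 0.36) in letter A and 0.30 (SE 0.20) in letter B. Per kilobase, *Itga2b* was 0.884 to 1.27 times *Itgb3* in young and 0.345 to 0.866 times *Itgb3* in old mice, and *Itgav* was 0.401 to 0.726 and 0.166 to 0.377 times *Itgb3*. Neither ratio overlapped between the ages. Both have *Itgb3* as denominator, while *Itga2b* and *Itgav* themselves overlapped, so the ratios restate the difference of *Itgb3*.

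Platelet RNA was examined because αIIb and β3 are abundant in megakaryocytes and platelets. Of 12 listed genes, 9 had a row, and all 9 had reads in every mouse. Their sum was 343 to 618 in young and 519 to 1333 in old mice. Most of it came from *Vwf* (von Willebrand factor) and *Selp* (P-selectin), which are also read in stem cells. *Selp* had 58.5 to 113 in young and 140 to 550 in old mice, without overlap, with a log2 difference of 1.93 (SE 0.32, limma adjusted p = 0.0225). *Vwf* had 183 to 341 in young and 251 to 710 in old mice, a log2 difference of 0.77 (SE 0.26, adjusted p = 0.780). With the letter as a covariate the difference of *Vwf* was 0.87 (SE 0.20, limma adjusted p = 0.0580). It was thus *Selp* alone that was called among the 6 tested genes of this list.

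The other 7 platelet genes summed to 75.2 to 168 in young and 74.4 to 128 in old mice, and they did not all lie in the same direction. *Pf4* (platelet factor 4) had a mean of 41.0 in young and 14.6 in old mice, and *Ppbp* (platelet basic protein) of 8.44 and 1.88. The platelet receptor genes *Clec1b*, *Gp1ba* and *Gp9* had higher means in old mice, at 4.74 and 11.3, 14.7 and 21.4, and 19.0 and 25.4, and 5, 4 and 2 of 7 old mice were above the young range. The means of *Gp6* (18.2 and 20.2) and *Tubb1* (6.08 and 5.99) were close. All 7 genes overlapped between the ages. The part of platelet or megakaryocyte RNA in the *Itgb3* difference was not tested.

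Endothelial cells also carry αvβ3. Their 9 listed markers summed to 559 to 707 in young and 496 to 888 in old mice, with *Plvap* at 0 reads in 1 mouse. Of the 8 tested, only *Ramp2*, a receptor activity-modifying protein gene, was called, with 2.35 to 11.1 in young and 33.2 to 69.6 in old mice and a log2 difference of 2.55 (SE 0.34, limma adjusted p = 0.00660). The other listed markers overlapped between the ages. *Emcn* went the other way, with means of 52.6 in young and 33.4 in old mice and 5 of 7 old mice below the young range. The ratio of old to young means was 1.38 for *Kdr*. It was between 0.96 (*Tie1*) and 1.12 (*Esam*) for *Cdh5*, *Pecam1*, *Flt1*, *Plvap*, *Tie1* and *Esam*. The part of endothelial RNA in the *Itgb3* difference was not tested.

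*Itgb1* (chr8:128685654-128733200, plus strand), the shared β chain of the laminin, fibronectin and VCAM-1 receptors, did not separate the ages. It had 293, 198, 279, 256 and 277 normalized read counts in young mice. It had 286, 285, 275, 348, 127, 216 and 181 in old mice. Old mice 5 and 7, low in stem cell markers, were the 2 below the young range, and old mouse 4 was above it. The log2 difference was -0.14 (SE 0.23) over all mice and 0.11 (SE 0.16) without old mice 5 and 7, so that its sign depended on them. It was -0.31 (SE 0.37) in letter A and 0.15 (SE 0.16) in letter B. As a share of stem cell markers, *Itgb1* was 5.87% ± 0.761 in young and 6.02% ± 0.989 in old mice.

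*Itga6* (chr2:71745616-71858416, plus strand), the α chain of the laminin receptor α6β1, had 269, 255, 374, 395 and 343 normalized read counts in young mice. It had 557, 600, 671, 646, 141, 394 and 384 in old mice. Old mice 1 to 4 were all above the young range, old mice 6 and 7 were within it, and old mouse 5 was below it. The log2 difference was 0.44 (SE 0.33) over all mice and 0.57 (SE 0.24) with the letter as a covariate. It was 0.81 (SE 0.19) without old mice 5 and 7. Within letter B, the 3 old mice (600 to 671) did not overlap with the 3 young mice (343 to 395), with a difference of 0.79 (SE 0.16). Within letter A, the difference was 0.33 (SE 0.44), with old mouse 5 below and the other 3 old mice above both young mice.

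Set against *Itgb1* in the same mouse, *Itga6* per kilobase was 0.414 to 0.697 in young and 0.503 to 1.10 in old mice, and 6 of 7 old mice were above all young mice. The exception was old mouse 5. The same held for its share of the stem cell markers, which was 6.05% to 8.18% in young mice, 8.13% in old mouse 5 and 9.21% to 15.5% in the other old mice. *Itga6* has 5.31% of its 50-base words in common with other genes, most of them with *Gm29397*. A small part of its reads could thus have been placed on another gene.

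**Figure D3:**
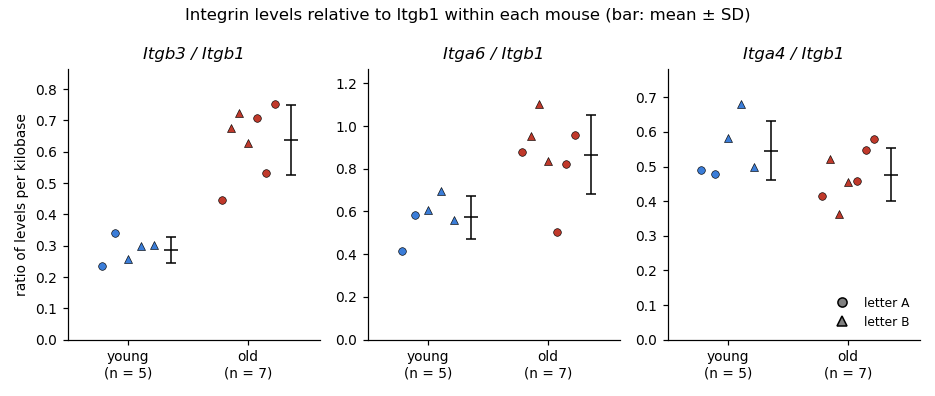
Ratio of *Itgb3*, *Itga6* and *Itga4* to *Itgb1* per kilobase of exon within each mouse, with bars for mean ± SD over 5 young and 7 old mice. The ratio of *Itgb3* does not overlap between the ages, that of *Itga6* is above the young range in 6 of 7 old mice, and that of *Itga4* overlaps.

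*Itga4* (chr2:79255426-79333123, plus strand), the α chain of the VCAM-1 receptor VLA-4, had 491, 324, 558, 597 and 472 normalized read counts in young mice. It had 405, 509, 342, 543, 199, 405 and 359 in old mice. Old mouse 5 was below the young range and the other 6 old mice were within it. The log2 difference was -0.34 (SE 0.25) and was negative in 30 of 30 alternatives, from -0.48 to -0.14, each within 1 SD between mice of the value over all mice. Its ratio to *Itgb1* per kilobase was 0.546 ± 0.086 in young and 0.477 ± 0.077 in old mice. Relative to *Itga6*, which was 0.848 to 1.22 times *Itga4* in young mice, the 7 old mice had 1.10 to 3.04 times, with 6 of them above the young range. Exons of *Itga4* overlap those of *Cerkl* on the opposite strand.

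After the age and letter means were removed from log2(value + 1), *Itgb1* and *Itga4* varied together over the 12 mice (Pearson r = 0.77), as did *Itga6* and *Itgb1* (r = 0.83). These are descriptions, and the mice share depth and background as well. *Itgb1*, *Itga6* and *Itga4* followed the summed stem cell markers in the same way (r = 0.90, 0.85 and 0.79), whereas *Itgb3* (r = 0.55) and *Itgb2* (r = 0.13) followed them less closely. Of this set that varied together, RefSeq promoter windows (GRCm38.p6) that begin at the annotated gene start were at hand for *Itgb1* and *Itga4*. The 250 bases upstream of each start are shown 5′ to 3′ because these 2 genes varied together, with the GC box GGGCGG, read on either strand, in capitals.
Itgb1, chr8:128685404-128685653, plus strand: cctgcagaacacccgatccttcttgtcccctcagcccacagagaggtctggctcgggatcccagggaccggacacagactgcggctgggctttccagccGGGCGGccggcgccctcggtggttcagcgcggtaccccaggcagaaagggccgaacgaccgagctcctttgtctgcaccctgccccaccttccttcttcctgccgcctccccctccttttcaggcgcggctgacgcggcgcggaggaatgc
Itga4, chr2:79255176-79255425, plus strand: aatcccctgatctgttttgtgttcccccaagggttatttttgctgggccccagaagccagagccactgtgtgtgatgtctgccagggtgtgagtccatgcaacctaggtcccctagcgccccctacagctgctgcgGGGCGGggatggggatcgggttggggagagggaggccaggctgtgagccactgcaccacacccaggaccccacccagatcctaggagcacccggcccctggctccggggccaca
Each window held 1 GC box, as 32.7% of all 32851 windows of this length held at least 1. The ETS core GGAAG, on either strand, was found at 2 positions upstream of *Itgb1* and at 0 upstream of *Itga4*, against 64.1% of all windows with at least 1. The GATA motif GATAA, on either strand, was found at 0 positions in both windows and in 22.6% of all windows. No window was at hand for *Itgb3*, *Itga6*, *Itgal* and *Itgb2*.

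*Itga9*, whose α9 chain binds tenascin C and osteopontin with β1, had 28.6, 53.8, 38.3, 29.8 and 36.1 normalized read counts in young mice. It had 38.0, 13.7, 19.9, 7.78, 56.0, 44.4 and 60.3 in old mice. The old values lay on both sides of the young range, with 3 below and 2 above it. The 3 low old mice (2, 3 and 4) carried letter B, and the log2 difference was -1.35 (SE 0.40) in letter B and 0.31 (SE 0.39) in letter A. Reads per mouse were 40 to 195, and the level per kilobase was 1.32 to 4.97 times the olfactory receptor level.

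*Itgb2* (chr10:77530252-77565708, plus strand), the β chain of the leukocyte integrins, had 80.3, 37.0, 53.6, 47.5 and 62.0 normalized read counts in young mice. It had 66.4, 69.8, 41.5, 61.2, 93.1, 145 and 57.8 in old mice. The highest value was in old mouse 6, the mouse with the highest sums of 10 mature myeloid markers (4272, against 324 to 1265 in the other old mice) and of 8 erythroid markers (1043, against 99.7 to 474). The part of such cells in *Itgb2* was not tested. The log2 difference of *Itgb2* was 0.39 (SE 0.27) over all mice, 0.63 (SE 0.40) in letter A and 0.06 (SE 0.25) in letter B.

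*Itgal*, the αL partner of β2, had 32.0, 53.8, 23.4, 9.81 and 32.0 normalized read counts in young mice. It had 40.7, 29.1, 20.6, 8.94, 90.0, 55.7 and 77.5 in old mice. The 4 old mice of letter A were all above the 3 of letter B, and the log2 difference between ages was 0.46 (SE 0.49). With the letter as a covariate it was 0.20 (SE 0.31). It was 0.59 (SE 0.39) in letter A and -0.14 (SE 0.47) in letter B, so its sign differed between the letters. With 46 to 119 reads per mouse and 1.47 to 3.55 times the olfactory receptor level per kilobase, *Itgal* was near the background in every library, and it was highest in old mouse 5, where that background was also highest. T and NK cell markers, of cells that read *Itgal* strongly, summed to 24.5 to 148, with *Cd3e* and *Ncr1* each at 0 reads in 1 mouse.

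**Figure D4:**
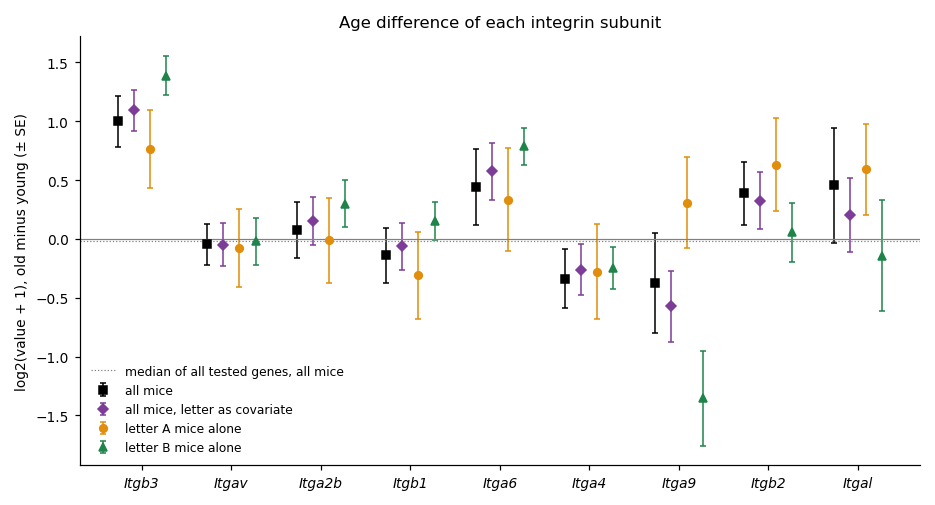
Difference between old and young mice on the log2(value + 1) scale with its SE for 9 integrin genes, over all mice, with the letter as a covariate, and within letter A and letter B. *Itgb3* is above 0 in all 4, from 0.76 to 1.39, and *Itga6* from 0.33 to 0.79. *Itga9*, *Itgb1*, *Itgal* and *Itga2b* (-0.01 in letter A) differ in sign between the letters.

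Over all mice 0 of 9 members were called for age by limma at an adjusted p under 0.05, against 13 genes in all, or 0.105% of those tested. At an unadjusted p under 0.05 there was 1 member, beside 488 of the 12354 tested genes. DESeq2 on the recovered reads called 1 member. edgeR called 0, beside 16 genes higher and 2 lower among all tested. With the letter as a covariate, 1 of 9 members was called, against 0.299% of all genes. Without old mouse 5, these counts were 1 over all mice and 2 with the letter as a covariate. The counts of all genes for DESeq2 and, without the covariate, for the fit lacking old mouse 5 are given in the last section. Since *Itgb3* was the gene around which the list was made, these calls rest on the values that chose it, and nothing is read from them. The median log2 difference of the 9 members was 0.07, beside -0.02 over all tested genes.

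The letter was not used to choose the genes, and its difference was tested. With age in the model, 4 of 9 members were called between letter B and letter A, against 36.1% of all genes. *Itga6* was higher in letter B by 0.76 (SE 0.24, limma adjusted p = 0.0160), and *Itgb3* by 0.55 (SE 0.17, adjusted p = 0.0161), a direction that 10.5% of all genes shared with a call. *Itgal* and *Itga9* were higher in letter A, with log2 differences, B minus A, of -1.48 (SE 0.31, adjusted p = 0.00120) and -1.16 (SE 0.30, adjusted p = 0.00500), as were 25.6% of all genes. The genes higher in letter A were the 2 members nearest to the olfactory receptor level, which itself was higher in letter A. The remaining 5 members were not called, with differences from -0.35 (*Itgb2*) to 0.46 (*Itga2b*).

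These letter differences depended on the scaling of the libraries. Median-ratio scaling moved the values by -0.30 to 0.32 on the log2 scale, down in every mouse of letter A and up in every mouse of letter B, and the median letter difference of all genes went from -0.09 to 0.21. Of the calls, 29.2% were higher in letter B before and 56.99% after this scaling. *Itgb1*, *Itga2b* and *Itga4* were then also called higher in letter B, so that 5 members were higher and 2 lower. Of all 12354 tested genes, 3360 were called higher and 2536 lower under this scaling, so calls rose across all genes as well. The small difference of *Itgav* turned from -0.01 to 0.29. Relative to the median of all genes, the difference of *Itgb3* was 0.64 before and 0.65 after. The call of *Itgb3* was lost without old mouse 4 (0.48, adjusted p = 0.0643), and that of *Itga6* without a variance trend (0.76, adjusted p = 0.0562).

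Whether the age difference itself varied with the letter was tested as an interaction. limma called 0 of 9 members, against 0.0162% of all genes, and edgeR on the recovered reads called 0. *Itga9* had the only unadjusted p under 0.05, with an age difference lower in letter B than in letter A by a log2 difference of -1.66 (SE 0.53, adjusted p = 0.9998). The age difference of *Itgb3* was 0.63 larger in letter B (SE 0.34, adjusted p = 0.9998) and that of *Itga6* 0.45 larger (SE 0.49, adjusted p = 0.9998), and no difference between the letters was detectable with 2 young mice of letter A.

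The other genes of the pathway were then described for age with the same fit. Their lists were fixed with earlier results of these data known. The counts and p-values below are therefore descriptions and no independent support. Of 94 tested genes in 5 lists, 1 was called by limma over all mice, and the same gene with the letter as a covariate. Among 17 further integrin subunits, 12 had a row and 11 were tested, and 0 were called (1 at an unadjusted p under 0.05, *Itga3*). The highest per kilobase were *Itga3*, *Itgae*, *Itgb4* and *Itgad*, with medians of 6.26, 3.69, 5.44 and 3.76, or 2.51, 1.67, 2.32 and 1.79 times the olfactory receptor level, near that of *Itgal*. *Itgam*, the αM partner of β2, had a median of 1.22 per kilobase, below the background. Each of these 12 subunits was within 2 times the olfactory receptor level in at least 3 of 12 mice.

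Of 23 tested genes for integrin activation and linkage to actin, such as the talins, kindlins and parvins, 0 were called, with 1 at an unadjusted p under 0.05. Their median log2 difference was -0.14, and 5 of 23 were above 0. Adhesion kinases and adaptors gave 0 calls of 20, with 2 at an unadjusted p under 0.05 and a median of -0.15. The 29 tested ligands and counter-receptors had 0 calls, with 3 at an unadjusted p under 0.05 and a median of 0.13. By the other count tests, edgeR and DESeq2 on recovered reads, the 5 lists together also gave 1 call each.

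The gene called was *Cd53*, a leukocyte tetraspanin of the 11 tested membrane partners of integrins. It had 6.87 to 34.1 normalized read counts in young mice and 39.5 to 112 in old mice, without overlap. Its log2 difference was 2.39 (SE 0.34, limma adjusted p = 0.00814) over all mice and 2.43 (SE 0.31, adjusted p = 6.98e-05) with the letter as a covariate. It was higher in 7 of 7 old mice than in any young mouse. The call was lost without a variance trend (adjusted p = 0.0862) and was kept in the other alternatives.

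The genes whose variation was most like that of *Itgb3* were found after the age and letter means were removed, among 4798 genes with a mean of at least 50. They were *Kri1* (r = 0.95), *Fads2* (0.89), *Fam84b* (0.88), *Fbxo22* (0.86) and *Slc50a1* (0.86) over 12 mice. Their own age differences were between -0.05 and 0.38, below that of *Itgb3*. *Itga6* had r = 0.71 with *Itgb3*, *Itgb1* 0.68 and *Itga4* 0.44.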

How the data were processed

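The authors deposited normalized read counts, a signal per gene and mouse made from reads divided by a rescaled library size, and a table of their own comparison (log2 fold changes, log2 CPM, p-values), which was not used. The submitters' processing notes name FastQC 0.11.8, STAR 2.5.4b, edgeR 3.24.3 and mm10, while the counting tool is not given in the sources used here. Values were whole multiples of 1 read in 100% of cases (tolerance 0.1 reads), so that reads were recovered for count tests. Each of 12 mice was counted once.

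limma 3.58.1 in R 4.3.3 (trend, pseudocount 1, minimum mean 10, Benjamini-Hochberg over all tested genes, adjusted p under 0.05) was the main test, and edgeR 4.0.16, DESeq2 1.42.0, other pseudocounts and minimum means, scaling, letters, a replicate block and leaving out mice were alternatives. The procedure was tested on simulated data. Members and gene lists were chosen with earlier results of these data known. Named genes were all members with a row, up to 4 called genes per pathway list, the 4 further subunits highest per kilobase, the 5 genes most like *Itgb3*, and marker genes on which a result turned. Exon lengths and positions came from GENCODE vM21, in which 18745 of 18762 identifiers were found. Python 3.11.15, numpy 2.4.6 and pandas 2.3.3 were also used. Recovered reads, summed over the genes of the table, were 0.861 to 5.12 M per mouse. They are not the sequencing depth, for which the paper gives higher numbers.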

Additional observations from a re-analysis of the deposited data

Results flagged for a closer look

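In 44 groups of mice compared for a value far from the others of its group, 3 such values were found, where chance gives about 1 in 20 groups, or 2.20. Young mouse 5 had 34.1 normalized read counts of *Cd53*, against 6.87 to 14.1 in the other young mice. In old mouse 6 the summed mature myeloid markers were 4272, against 324 to 1265 in the other old mice, and the summed erythroid markers were 1043, against 99.7 to 474. None of the integrin values or of their ratios to *Itgb1* lay this far from its group.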

How the results depend on the processing

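Over the alternatives, 265 of 267 log2 age differences of the members moved by less than 1 SD between mice, and none of the called letter differences turned its sign. The exceptions were *Itgb3* (1.39) and *Itga9* (-1.35) in letter B alone. *Itgb3* was positive in 30 of 30 alternatives (0.76 to 1.39), *Itga6* in 30 of 30 (0.33 to 0.81) and *Itgb2* in 30 of 30 (0.06 to 0.63). *Itga4* was positive in 0 of 30 (-0.48 to -0.14). The alternatives draw on the same mice, so a constant sign is not independent evidence. The count of all genes called for age (13) was 2 without a variance trend, 5 with median-ratio scaling, 1 in letter A, 100 in letter B, 8 for replicates 1 to 5 without a block, 49 without old mice 5 and 7, 58 with DESeq2, 37 with the letter as a covariate, and 3 to 32 with 1 mouse left out, highest without old mouse 5. Member calls for age (0) were 2 in letter B, 1 without old mice 5 and 7, 1 with DESeq2, 1 with the letter, and 0 to 1 with 1 mouse left out (1 without old mouse 5). With the letter as a covariate (1), they were 0 without a variance trend, 2 without old mice 5 and 7, and 1 to 2 with 1 mouse left out. Member calls for the letter (4) were 2 at a minimum mean of 50, at which *Itgal* and *Itga9* were not tested. They were 7 with median-ratio scaling, beside 3360 higher and 2536 lower among all tested genes. They were 3 to 6 with 1 mouse left out, where *Itgb1* and *Itga2b* were gained without young mouse 1 or old mouse 1. Pathway calls for age (1) were 0 without a variance trend, 3 in letter B and 2 without old mice 5 and 7. The other causes were not tested. With a replicate block over replicates 1 to 5, which pair different animals, 0 members were called. Deviations of same-numbered mice correlated from -0.56 to 0.61, and 2 of 5 young mice were closest to their own number. The alternatives without old mice 5 and 7, relative to other genes, with thinned reads and without a block were chosen after seeing the data. Counting error is largest for *Itgal* and *Itga9*, with 40 to 195 reads per mouse.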
